A study of Homo sapiens with 6 samples.

Results

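The human metallothionein cluster on chromosome 16 was described in 6 libraries of polyadenylated RNA from DIvA cells. Its 9 members, MT1A, MT1E, MT1F, MT1G, MT1H, MT1M, MT1X, MT2A and MT3, were taken by gene symbol from a table of 55882 genes, and all 9 were found there. DIvA cells derive from the osteosarcoma line U2OS and carry the restriction enzyme AsiSI in a form that enters the nucleus and cuts DNA when 4-hydroxytamoxifen (4-OHT) is added. The 3 p53 WT libraries came from DIvA cells with wild-type p53, and the 3 p53 KO libraries from DIvA cells in which p53 was knocked out. All 6 received 300 nM 4-OHT for 5 h, so that cells without cut DNA were not analysed here. The labels do not say whether replicates were separate cultures or how many knockout clones were used, and p-values measure only the spread between these samples. Expression is given in CPM, counts scaled to a common library size with composition factors, as mean ± SD. A positive log2 fold change means a higher level in p53 KO, and each comes with its standard error (SE).

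Metallothioneins are small cytosolic proteins in which many cysteines hold zinc and copper ions, and also bind cadmium. Zinc releases the transcription factor MTF1 to bind metal response elements in the promoters of these genes, so that the transcripts rise with free zinc. MT2A is also a known target of glucocorticoids. MT1 and MT2 genes are broadly expressed, whereas MT3 is known mainly from brain.

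The coding sequences of the 3 most abundant members are shown because the results below compare genes that are nearly copies of each other. They are the coding parts of GENCODE 29 transcripts, start codon to stop codon, and capitals mark the in-frame TGC and TGT codons for cysteine.
MT2A: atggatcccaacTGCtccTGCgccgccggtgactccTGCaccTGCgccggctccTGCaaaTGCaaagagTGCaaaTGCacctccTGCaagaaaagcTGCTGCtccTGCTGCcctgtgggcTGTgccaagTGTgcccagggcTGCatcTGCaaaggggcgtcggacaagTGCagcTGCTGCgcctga
MT1E: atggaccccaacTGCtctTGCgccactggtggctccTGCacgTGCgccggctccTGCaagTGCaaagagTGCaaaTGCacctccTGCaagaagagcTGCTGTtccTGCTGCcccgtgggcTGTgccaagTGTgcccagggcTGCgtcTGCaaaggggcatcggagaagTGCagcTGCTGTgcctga
MT1X: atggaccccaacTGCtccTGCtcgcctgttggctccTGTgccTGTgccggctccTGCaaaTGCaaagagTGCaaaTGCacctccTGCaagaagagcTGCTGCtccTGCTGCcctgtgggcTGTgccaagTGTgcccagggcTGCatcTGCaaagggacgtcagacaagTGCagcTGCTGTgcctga
Each of these coding sequences, like those of the other MT1 members, held 20 cysteine codons, which was 32.8% of the 61 codons before the stop. Between any 2 of the MT1 and MT2A sequences, coding identity was 88.7% to 95.2%. MT1E and MT1X were each 92.5% identical to MT2A.

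Stretches shared letter for letter along whole transcripts bear on how far reads can be assigned. Of the 50-base stretches of the main MT2A transcript, 4.88% also occurred in a transcript of another gene, among them the pseudogene MT2P1. The share was 5.34% for MT1E, 5.76% for MT1A, 3.59% for MT1F and 7.05% for MT1M. It was 20.2% for MT1G, 20.4% for MT1H and 45.1% for MT1X, most of the last with AC026461.1, a processed transcript annotated at the same place as MT1X, and 16% when that transcript was left out. No source used here says how reads that fit several genes were treated, and counts of single members are uncertain by an amount that was not tested, most of all for MT1X, MT1G and MT1H.

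Promoter sequence was found for 3 of the 9 members, MT2A, MT1H and MT1X. Both promoters below are shown for the metal response element core, searched on both strands as TGCACNC and TGCGCNC, with matches in capitals, and no matches overlapped. They are the 160 bases before the start site, taken from RefSeq (GRCh38.p14, whereas the authors used GRCh37), at chr16:56608424-56608583 for MT2A and chr16:56682310-56682469 for MT1X, both on the plus strand.
MT2A promoter: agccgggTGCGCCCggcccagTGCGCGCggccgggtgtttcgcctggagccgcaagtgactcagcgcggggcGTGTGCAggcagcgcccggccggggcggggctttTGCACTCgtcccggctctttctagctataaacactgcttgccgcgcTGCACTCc
MT1X promoter: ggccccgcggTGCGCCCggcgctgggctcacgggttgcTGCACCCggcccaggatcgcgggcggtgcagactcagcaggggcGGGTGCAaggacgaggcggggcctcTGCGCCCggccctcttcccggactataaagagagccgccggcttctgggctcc
In the 250 bases before the start, MT2A had 7 matches, MT1H 8 and MT1X 4. Of 35116 promoters of the same length, 24.8% had at least 1 match and 0.37% at least 4. A match is a description of letters and does not show binding.

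CDKN1A, a cell cycle inhibitor that p53 induces, had 572, 520 and 532 CPM in p53 WT replicates 1, 2 and 3 and 49.0, 41.8 and 46.5 CPM in p53 KO. Total counts ran from 20393909 in p53 KO replicate 3 to 79767519 in p53 WT replicate 1. Of osteoblast lineage markers, COL1A1, SPARC and RUNX2 were detected and SP7 and IBSP were at 0 in every library. The summed CPM of the marker lists was 1994 to 2022 in p53 WT and 1683 to 2097 in p53 KO for osteoblast genes, 495 to 553 and 584 to 712 for epithelial genes, and 29 to 29.1 and 47.4 to 51.5 for endothelial genes. For leukocyte genes, with LYZ at 0 in every library, it was 7.72 to 8.32 and 17.9 to 21.7, and for neuronal and astrocyte genes 246 to 272 and 138 to 161. The sums rest mostly on a few abundant genes and are not levels of whole lists. In p53 WT, SPARC and COL1A1 averaged 1223 and 687 CPM, KRT18 and KRT8 366 and 142 CPM, and TUBB3 and NEFL 127 and 92.6 CPM. Over all genes tested, 12.1% rose and 14.4% fell by edgeR at an adjusted p under 0.05. Of tested markers, 1 of 8 osteoblast genes rose and 4 fell, 3 of 9 epithelial, 3 of 6 endothelial and 3 of 4 leukocyte genes rose, and 1 of 7 neuronal and astrocyte genes rose and 3 fell. The part of these differences in the results below was not tested.

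MT1X rose without p53, MT1E stood just short of the threshold, and MT2A, the most abundant member, did not pass it. Of the 9 members, 5 passed the filter on low counts and 1 of these rose while 0 fell. At an unadjusted p under 0.05, 2 rose and 0 fell by edgeR, and after adjustment DESeq2 called 2 higher and 0 lower and limma-voom 1 and 0. Over all 22352 genes tested, 12.1% rose and 14.4% fell by edgeR's quasi-likelihood test at an adjusted p under 0.05. The median log2 fold change was -0.23 over the 5 tested members and 0.01 over all genes tested. The groups did not overlap for 1 of the 5, MT1X, and for 40.8% of all genes tested.

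MT2A, the main metallothionein of these cells, had 530, 455 and 490 CPM in p53 WT replicates 1, 2 and 3 and 375, 355 and 532 CPM in p53 KO replicates 1, 2 and 3. The groups overlapped, because p53 KO replicate 3 was level with the highest p53 WT library while p53 KO replicates 1 and 2 were the lowest. The means were 492 ± 37.7 and 421 ± 97.2 CPM (SD, n = 3 each), and the log2 fold change was -0.23 (SE 0.13, adjusted p = 0.255 by edgeR). Without p53 KO replicate 3, which had the smallest total count, it was -0.42 (adjusted p = 0.00295 by edgeR) and passed the threshold as a fall. In bulk RNA, fewer cells with a transcript and less of it per cell cannot be told apart.

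MT1E, a broadly expressed MT1 gene, had 125, 109 and 110 CPM in p53 WT and 141, 119 and 201 CPM in p53 KO replicates 1, 2 and 3. Its lowest p53 KO library lay inside the p53 WT range, and p53 KO replicate 3 was far above the others. The log2 fold change was 0.42 (SE 0.15, adjusted p = 0.0593 by edgeR). The adjusted p was 0.0298 by DESeq2 and 0.00671 by edgeR without p53 KO replicate 2, at 0.43 and 0.57 on the log2 scale. Without p53 KO replicate 3 the log2 fold change was 0.19 (adjusted p = 0.218 by edgeR).

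MT1X, another metal-induced MT1 gene, had 10.0, 8.80 and 9.57 CPM in p53 WT and 14.7, 12.2 and 22.6 CPM in p53 KO replicates 1, 2 and 3. All p53 KO libraries were above all p53 WT libraries, as for 19.4% of all genes tested. It rose from 9.46 ± 0.614 to 16.5 ± 5.44 CPM (SD, n = 3 each), or by 0.79 on the log2 scale (SE 0.21, adjusted p = 0.012 by edgeR). The call was lost without p53 WT replicate 2, at 0.74 (adjusted p = 0.0595 by edgeR), and without p53 KO replicate 3 the value was 0.52 (adjusted p = 0.046 by edgeR).

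MT1A and MT1H were tested at low counts and neither passed the threshold. MT1A had 1.66, 1.68 and 1.44 CPM in p53 WT and 1.57, 1.20 and 1.3 CPM in p53 KO, and its log2 fold change was -0.23 (SE 0.38, adjusted p = 0.716 by edgeR). The groups overlapped, and p53 KO replicate 3, the highest library for MT2A, MT1E and MT1X, was not high for MT1A. MT1H had -1.20 (SE 0.77, adjusted p = 0.293 by edgeR), an SE that leaves its direction unsettled.

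**Figure D1:**
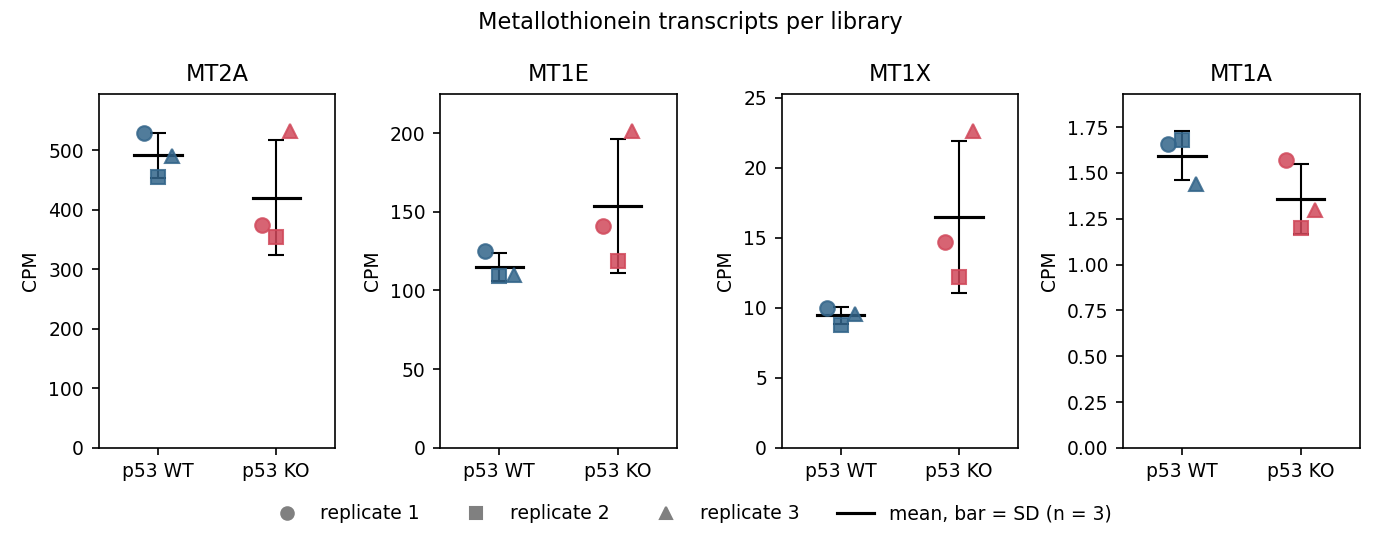
CPM of MT2A, MT1E, MT1X and MT1A (vertical axes, starting at 0) in the 3 p53 WT and 3 p53 KO libraries, with the symbol showing the replicate, the line the mean and the bar the SD. In p53 KO, replicate 3 is the highest library for MT2A (532 CPM), MT1E (201 CPM) and MT1X (22.6 CPM) but not for MT1A, and the groups are apart for MT1X alone.

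Of the 4 members that did not pass the filter, MT1F, MT1M and MT3 were close to absent. MT1F had 7 counts in p53 WT replicate 3, 6 counts in p53 KO replicate 3 and 0 in the other 4 libraries. MT1M had 3 counts in p53 WT replicate 2, 3 in p53 KO replicate 1 and 0 elsewhere. MT3, the brain member, had 4, 2 and 3 counts in p53 WT and 5, 1 and 0 in p53 KO. Where 0 reads were counted, up to 3 are possible, or 0.0381 CPM at the greatest depth and 0.15 CPM at the smallest, for counting error only. No difference of MT1F, MT1M or MT3 between the groups was detectable at this depth.

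MT1G, also a metal-induced MT1 gene, had 1, 2 and 0 counts in p53 WT and 83, 1 and 5 counts in p53 KO replicates 1, 2 and 3. Its 89 counts in p53 KO thus came mostly from replicate 1, and replicate 2, with 0.0244 CPM, lay within the p53 WT range of 0.0 to 0.0297 CPM. MT1G was past the threshold as higher by edgeR when p53 KO replicate 2 was left out and when no filter on low counts was used. With p53 KO replicate 2 left out, MT1G met the filter only through p53 KO libraries, the group where it was high. Nothing is read from either call.

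Set per length of the main transcript, the order of levels in p53 WT was MT2A with 626 CPM per kilobase, MT1E with 163, MT1X with 21.0, MT1A with 4.02 and MT1H with 1.87. In p53 KO the order of these 5 was the same, at 535, 218, 36.7, 3.42 and 0.805 CPM per kilobase, but MT1G, with 1.15, came between MT1A and MT1H. That value of MT1G rests on p53 KO replicate 1, and its libraries overlapped those of MT1H. Among the 5, the gap between each neighbouring pair exceeded the spread over libraries. MT1F, MT3, MT1G and MT1M were at 0.139, 0.119, 0.0348 and 0.0179 CPM per kilobase in p53 WT, where counts of 9 or fewer do not fix an order.

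The summed level of the 9 members overlapped between the groups, while the shares of MT2A, MT1E and MT1X in it did not. The sum was 668, 575 and 613 CPM in p53 WT and 534, 488 and 758 CPM in p53 KO replicates 1, 2 and 3. These ranges overlapped, and the p53 KO libraries held both the lowest and the highest sum. MT2A made up 79.4%, 79.1% and 80% of the sum in p53 WT and 70.2%, 72.8% and 70.2% in p53 KO. MT1E made up 18.7%, 19.0% and 18.0% against 26.5%, 24.3% and 26.5%, and MT1X 1.5%, 1.53% and 1.56% against 2.76%, 2.51% and 2.99%. The groups did not overlap in these shares, and p53 KO replicate 3, high in all 3 genes, had the same MT2A share as p53 KO replicate 1. The shares are parts of the same sum and so are not independent of each other. A rise against MT2A was common, in all p53 KO libraries for 27.2% of 12691 genes with at least 5 CPM on average.

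Ratios of reads within a library show the same change free of library scaling. For each 100 MT2A reads there were 23.5, 24.0 and 22.5 MT1E reads in p53 WT and 37.7, 33.4 and 37.8 in p53 KO, a log2 difference of 0.63. Per 100 MT2A reads, MT1X had 1.89, 1.93 and 1.95 reads in p53 WT and 3.92, 3.44 and 4.25 in p53 KO, a log2 difference of 1.00. Per 100 MT1E reads, MT1X had 8.02, 8.05 and 8.69 in p53 WT and 10.4, 10.3 and 11.3 in p53 KO, a log2 difference of 0.37. The groups did not overlap in any of these 3 ratios, which were chosen after their values were seen and are not independent of each other. The two-sided exact permutation test gave p = 0.1 for each, adjusted p = 0.1 over the 3, which is the smallest p that 3 libraries against 3 allow. As background, the ratio to MT2A was higher in all p53 KO libraries than in all p53 WT libraries for 27.2% of 12691 genes with at least 5 CPM on average, and the ratio to MT1E for 4.35% of them.

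**Figure D2:**
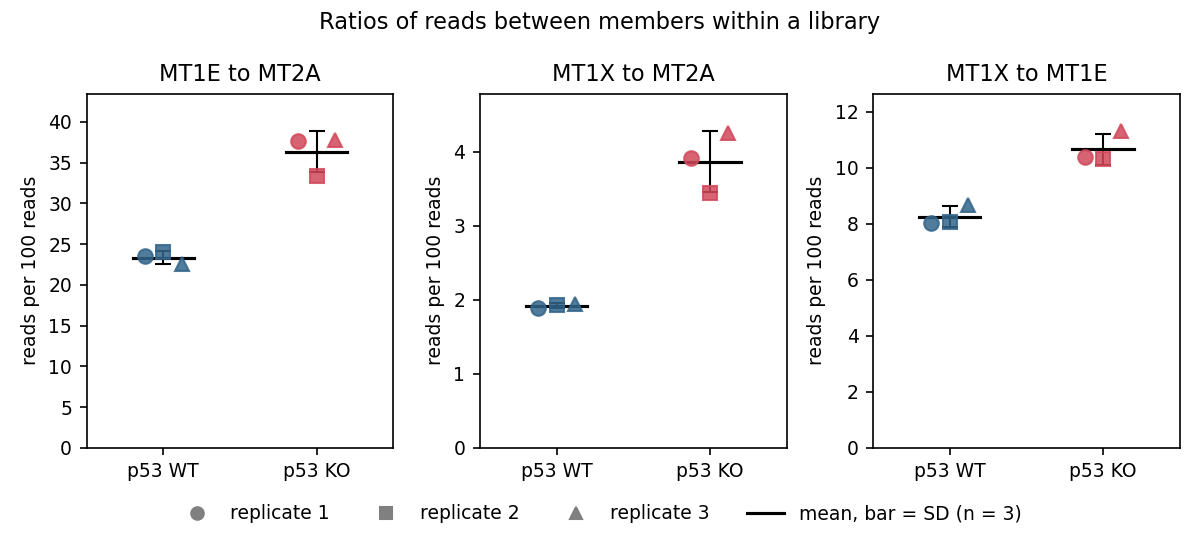
Reads of one member per 100 reads of another in the same library (vertical axes, starting at 0), with symbols for replicates, lines for means and bars for the SD. MT1E to MT2A rises from 22.5 to 24.0 in p53 WT to 33.4 to 37.8 in p53 KO, and the groups are apart in all 3 panels.

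Counts of other family genes were low and split in an unequal way among the p53 KO libraries. MT1L, a transcribed pseudogene of the cluster, had 52, 19 and 17 counts in p53 WT and 3, 26 and 2 in p53 KO replicates 1, 2 and 3. MT1H had 86, 29 and 17 counts in p53 WT and 11, 25 and 4 in p53 KO. For both, p53 KO replicate 2 lay within the p53 WT range in CPM and the other p53 KO libraries lay below it. MT1CP, a pseudogene, had 1, 0 and 0 counts in p53 WT and 37, 1 and 19 in p53 KO, so that p53 KO replicate 2 was again nearest to p53 WT, as it was for MT1G. Of 29692 genes with at least 10 counts, 35 were at least 4-fold above and 177 at least 4-fold below every p53 WT library in p53 KO replicates 1 and 3 while replicate 2 lay within the p53 WT range. With replicate 1 as the library within that range the numbers were 37 and 118, and with replicate 3 they were 44 and 71. Of the family, MT1G was the one gene counted there.

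Of the retrocopies elsewhere in the genome, MT2P1 and MT1P3 were tested and neither passed the threshold. Of their 50-base stretches, 15.7% for MT2P1 and 54.7% for MT1P3 also occurred in transcripts of other genes. Their counts are therefore uncertain in the same way as those of the members. MT2P1 had 3.45 ± 1.04 and 3.63 ± 1.54 CPM (SD, n = 3 each), with a log2 fold change of 0.04 (SE 0.34), and MT1P3 had 0.51 (SE 0.54, adjusted p = 0.556 by edgeR). MT1XP1 had 8, 2 and 0 counts in p53 WT and 28, 6 and 6 in p53 KO. MT1HL1 had 0, 4 and 0 counts in p53 WT and 14, 0 and 0 in p53 KO, and its groups overlapped. Neither MT1XP1 nor MT1HL1 passed the filter on low counts, so they were not tested. In CPM, all p53 KO libraries were above all p53 WT libraries for MT1XP1, as for 19.4% of all genes tested. MTL5, a testis gene of a different protein family despite its name, had -0.29 (SE 0.55). MT4, MT1JP and MT1DP had 0 counts in every library, and MT1B and MT1P1 had 4 and 3 counts in all. Of the 4 tested genes on the list 0 rose and 0 fell, also by DESeq2 and limma-voom, and 0 had an unadjusted p under 0.05 by edgeR, where the smallest was 0.316.

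**Figure D3:**
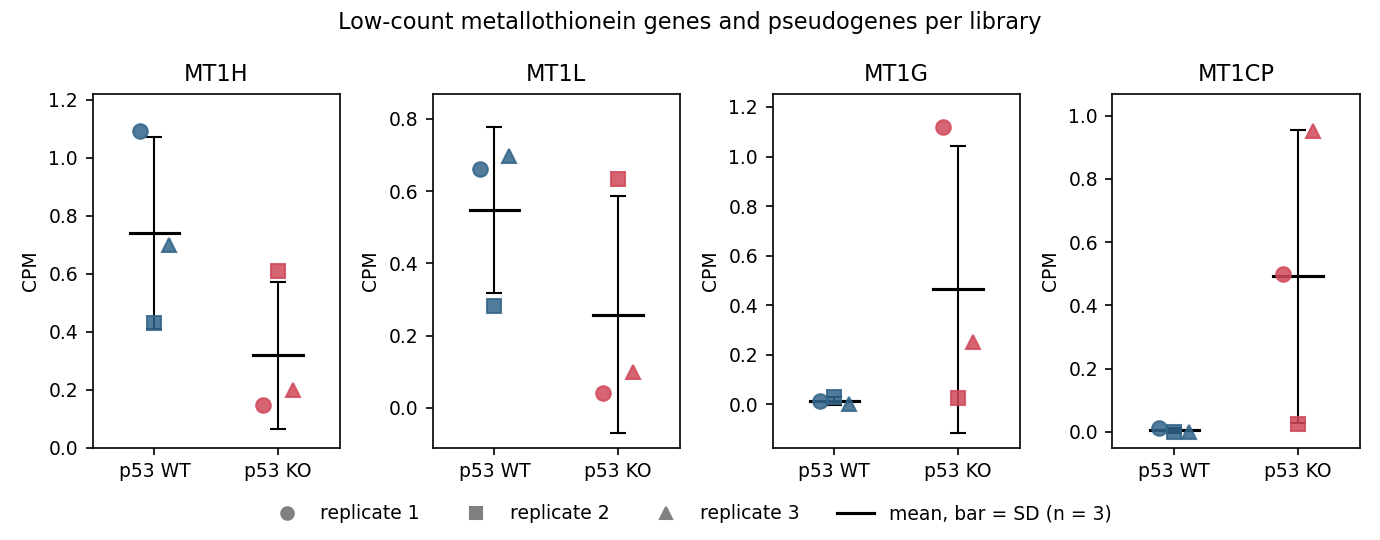
CPM of MT1H, the pseudogene MT1L, MT1G and the pseudogene MT1CP (vertical axes; SD bars can reach below 0) by group, with symbols for replicates, lines for means and bars for the SD. In p53 KO, replicate 2 has 0.61 CPM of MT1H and 0.0244 CPM of MT1G, both within the p53 WT range.

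The cluster lies in a stretch of chromosome 16 whose genes were mostly higher in p53 KO, and its main member lay below nearly all of them. The choice of the cluster used the rise of its neighbours, which is therefore given as a description. Of the 50 nearest protein-coding genes that averaged at least 2 CPM, 37 rose, 2 fell and 11 did not pass, and their median log2 fold change was 0.66. The 25 genes before the cluster had a median of 0.48 and the 25 after it 0.83. Of the 50 neighbours, 3 had a lower value than MT2A, 14 a lower value than MT1E and 32 a lower value than MT1X.

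Among the 5 nearest tested genes before the cluster, NUDT21, a subunit of the pre-mRNA cleavage factor, rose from 97.6 ± 7.32 to 186 ± 4.16 CPM (SD, n = 3 each). OGFOD1, a ribosomal prolyl hydroxylase, rose by 0.53 on the log2 scale (SE 0.11). BBS2, a ciliary protein and the gene next to the cluster, had 0.03 (SE 0.13), and GNAO1, a G protein subunit, fell by 0.62 (SE 0.17). The call of GNAO1 was lost without p53 WT replicate 1 or 2 or p53 KO replicate 1, at -0.54, -0.60 and -0.53.

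After the cluster, NUP93, a nuclear pore protein and the first gene beyond MT1X, rose from 88.7 ± 4.41 to 150 ± 10.0 CPM (SD, n = 3 each). On the log2 scale, HERPUD1, a stress-induced protein of the endoplasmic reticulum, rose by 0.92 (SE 0.12), CPNE2, a copine, by 0.83 (SE 0.13) and FAM192A by 0.63 (SE 0.10). NLRC5, an activator of MHC class I genes, had -0.46 (SE 0.28, adjusted p = 0.263 by edgeR).

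Each gene was also set against its surroundings by taking the median of its 50 nearest genes off p53 KO as a fixed offset. MT2A then had -0.89, MT1E -0.24 and MT1X 0.13 on the log2 scale, and MT1A and MT1H had -0.89 and -1.86. With the 20 nearest genes in place of 50, MT2A had -0.90. The offset carries no error of its own, although the 50 neighbours ran from -1.47 to 1.70, so a call under it is no test of a gene against its surroundings, here or in the values relative to neighbours below. Under it 1 member, MT2A, was past the threshold, as lower, beside 10.3% of all genes tested lower and 9.47% higher, and nothing is read from that call. No copy number was measured in these libraries, and how a shift of the whole stretch acts on these genes was not tested.

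**Figure D4:**
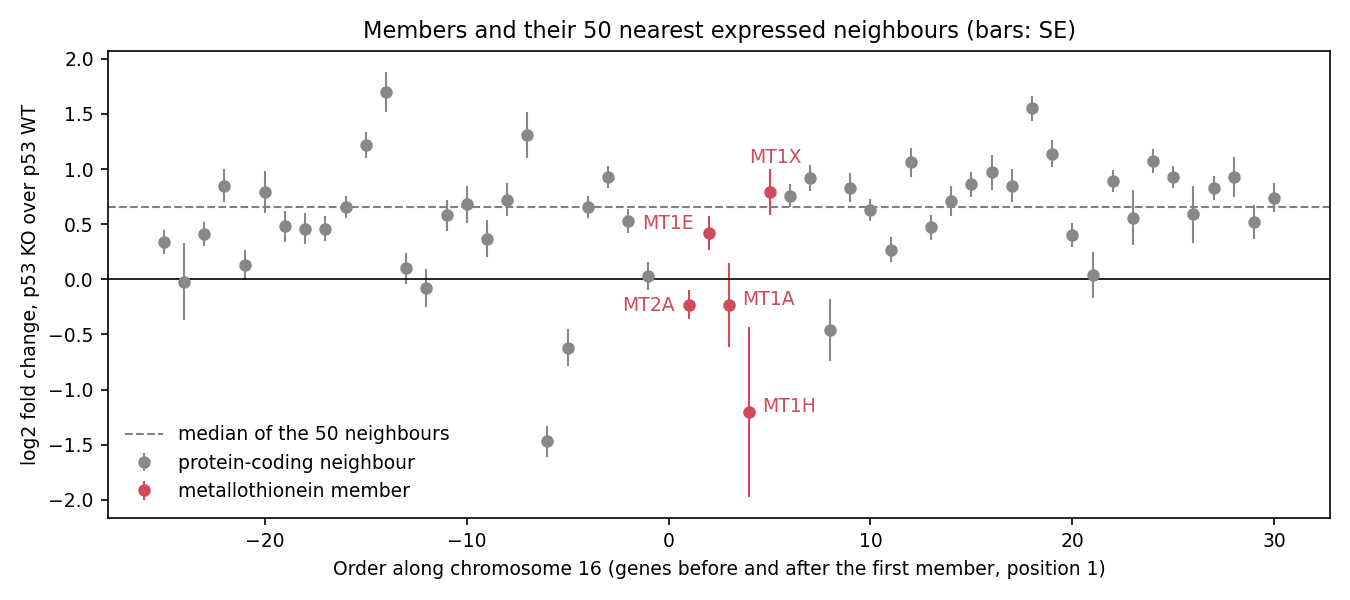
Log2 fold change of p53 KO over p53 WT with its SE (vertical axis) for the 5 tested members and the 25 ordered protein-coding genes on either side (horizontal axis, order along chromosome 16). Most neighbours lie above 0 around their median of 0.66 (dashed line), MT1X at 0.79 lies among them, and MT2A at -0.23 lies below all but 3.

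Among genes listed as metal-sensing and glucocorticoid regulators, MTF1 was the one that fell. MTF1, the zinc-sensing activator of metallothionein genes, had 27.6, 29.3 and 31.5 CPM in p53 WT and 18.0, 19.6 and 13.9 CPM in p53 KO. The groups were apart, and MTF1 fell by 0.77 on the log2 scale (SE 0.15, adjusted p = 0.00144 by edgeR). Relative to the median of its own neighbours it had -0.27 (adjusted p = 0.243 by edgeR). STAT3, a cytokine-activated factor, rose by 0.62 (SE 0.12) and USF1, an E-box factor, by 0.46 (SE 0.12), the latter with 0.40 (adjusted p = 0.0892 by edgeR) without p53 WT replicate 2 and 0.31 (adjusted p = 0.096 by edgeR) relative to its neighbours. Of the 10 tested genes on this list 2 rose and 1 fell, beside 12.1% and 14.4% of all genes tested. The other 7 did not pass, among them NR3C1, the glucocorticoid receptor, with 0.10 (SE 0.15). A place on the list, as MTF2 and KEAP1 have, does not show that a gene regulates metallothionein genes.

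SLC30A1, the zinc exporter of the plasma membrane and like the metallothioneins a known MTF1 target, had 69.5, 75.9 and 78.0 CPM in p53 WT and 48.2, 46.7 and 40.6 CPM in p53 KO. Every p53 KO library was below every p53 WT library, and it fell by 0.72 on the log2 scale (SE 0.11, adjusted p = 0.000253 by edgeR), with the same -0.72 relative to its neighbours. Of 8 tested SLC30 genes 0 rose and 3 fell by edgeR, beside 12.1% and 14.4% of all genes tested. The numbers were the same by DESeq2 and limma-voom, which used the same libraries, and at an unadjusted p under 0.05. The median log2 fold change was -0.29. The others that fell, SLC30A9 and SLC30A6, had -0.54 (SE 0.13) and -0.45 (SE 0.11). SLC30A9 had -0.47 (adjusted p = 0.0513 by edgeR) without p53 WT replicate 2, and SLC30A6 had -0.16 (adjusted p = 0.399 by edgeR) relative to its neighbours.

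Of 13 tested SLC39 zinc importers 5 fell, 1 rose and 7 did not pass, beside 14.4% lower and 12.1% higher of all genes tested. The median log2 fold change was 0.00. That median is the value of SLC39A2, which had an SE of 2.44 at 0.371 CPM in p53 WT and 0.341 CPM in p53 KO. It therefore says little about the centre of the list. SLC39A6 fell from 76.0 ± 6.08 to 43.8 ± 9.53 CPM and SLC39A11 from 19.5 ± 2.03 to 11.8 ± 0.396 CPM (SD, n = 3 each). SLC39A3 had -0.61 (SE 0.14). The importer that rose was SLC39A14, by 0.33 (SE 0.10) on the log2 scale, named after its values were seen. Relative to their neighbours, 2 of the importers were called lower and 1 higher, under the offset that carries no error of its own. Of all genes tested, 10.3% were lower and 9.47% higher under that offset. SLC39A6 and SLC39A3 then had -0.21 and -0.29 (adjusted p = 0.351 and 0.186 by edgeR).

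Copper genes split, with 2 of 14 higher and 3 lower, beside 12.1% and 14.4% of all genes tested. COX17, a copper chaperone of cytochrome oxidase, rose from 20 ± 1.81 to 46.0 ± 7.29 CPM and CP, ceruloplasmin, from 2.46 ± 0.543 to 7.26 ± 1.49 CPM (SD, n = 3 each). SCO2, another cytochrome oxidase copper chaperone and a known p53 target, fell from 20.9 ± 3.70 to 12.2 ± 2.43 CPM (SD, n = 3 each). Relative to neighbours, COX17 had 0.90 (adjusted p = 0.000349 by edgeR) and CP 0.68 (adjusted p = 0.0855 by edgeR). SCO2 had -0.13 (adjusted p = 0.683 by edgeR) on the same scale. The fixed offset ignores the spread of the neighbours, so nothing is read from a call kept or lost under it. SOD1, the abundant copper and zinc enzyme, had -0.07 (SE 0.11).

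**Figure D5:**
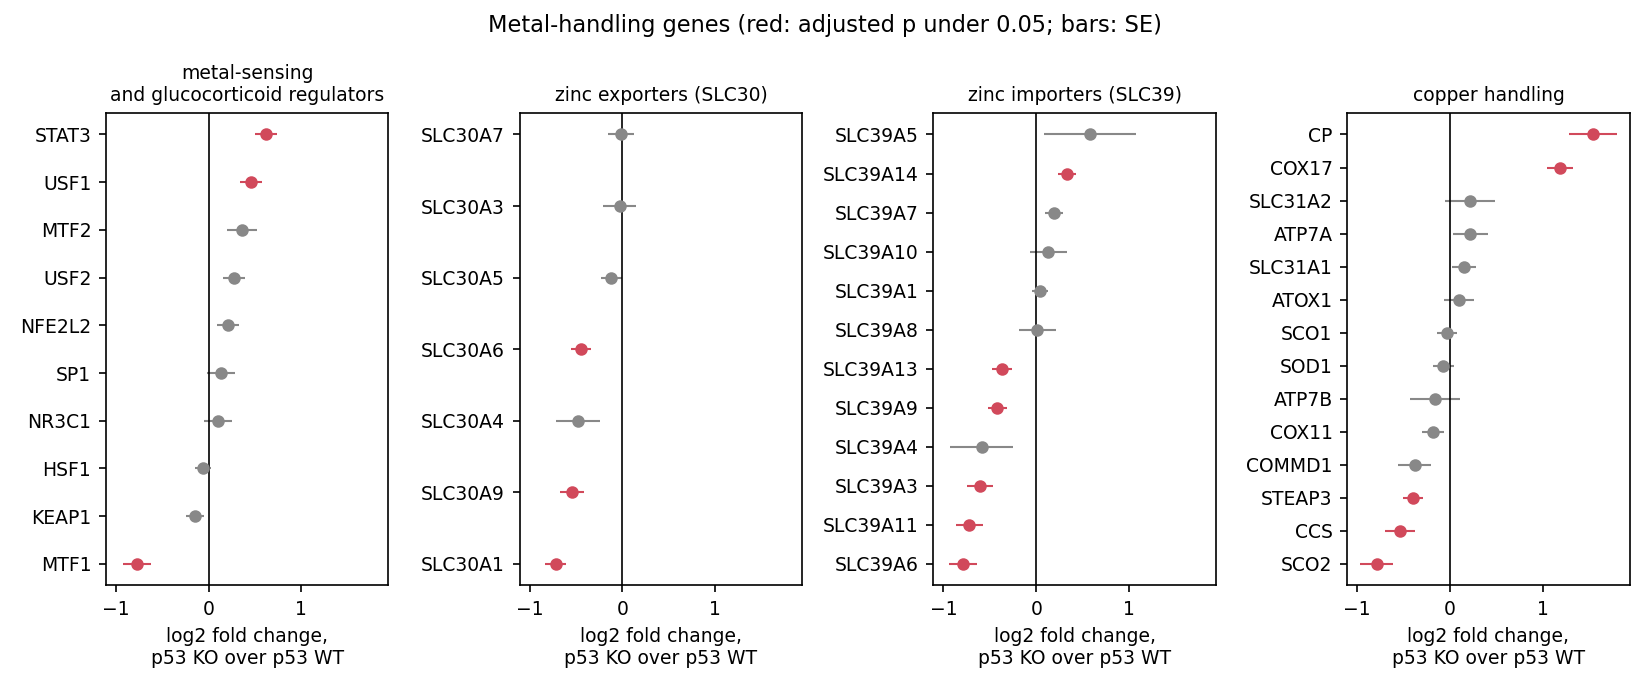
Log2 fold change of p53 KO over p53 WT with its SE (horizontal axes) for tested regulators, SLC30 exporters, SLC39 importers and copper genes, in red where the adjusted p is under 0.05. SLC30A2 and SLC39A2, with an SE over 1, are not drawn. MTF1 (-0.77) and SLC30A1 (-0.72) are the lowest genes of their panels.

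Glucocorticoid receptor targets did not move one way. Of 9 tested, 2 rose and 2 fell by edgeR, beside 12.1% and 14.4% of all genes tested. Their median log2 fold change was -0.11. DESeq2 and limma-voom each called 2 higher and 3 lower, and edgeR had the same numbers at an unadjusted p under 0.05. DUSP1, a phosphatase of MAP kinases, rose by 0.92 (SE 0.11), PER1, a clock gene, rose by 0.67 (SE 0.18), and SGK1, a kinase of ion transport, fell by 0.75 (SE 0.14). PER1 lost its call without p53 WT replicate 3, at 0.60 (adjusted p = 0.053 by edgeR). Relative to its neighbours PER1 had 0.49 (adjusted p = 0.0647 by edgeR), under the offset that carries no error of its own. FKBP5, a common readout of the receptor, had 0.18 (SE 0.14). KLF9 fell by 0.85 (SE 0.25), and TSC22D3 had -0.78 (SE 0.28, adjusted p = 0.0507 by edgeR). FKBP5, KLF9 and TSC22D3 were named after their values were seen.

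Of 13 genes of metal and oxidant stress, 5 rose, 6 fell and 2 did not pass. Among all genes tested, 12.1% rose and 14.4% fell. The near-identical HSP70 genes HSPA1A and HSPA1B, uncertain as single genes, rose from 79.7 to 317 and from 57.5 to 211 CPM. SLC7A11, the cystine transporter, had -1.81 (SE 0.16). HMOX1, heme oxygenase, which heavy metals induce, fell from 29.3 ± 1.06 to 20.1 ± 0.865 CPM (SD, n = 3 each), and was named after its values were seen.

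The genes whose log2 CPM ran most like that of MT2A over the 6 libraries were SSR4, SMARCB1, STS, C16orf13 and INO80B, with Pearson's r of 0.991, 0.99, 0.99, 0.984 and 0.983 among 12691 genes. These are descriptions over 6 points that share library and depth, picked as the highest of many. SSR4, a translocon-associated protein, shows the shape: 87.9, 68.7 and 80.5 CPM in p53 WT and 55.9, 54.9 and 89.0 CPM in p53 KO, high in p53 KO replicate 3. None of the 5 passed the threshold between groups by edgeR with all libraries in the fit and no local median taken off. Without p53 KO replicate 3, SSR4 had -0.50 (adjusted p = 0.00436 by edgeR) and C16orf13 -0.57 (adjusted p = 0.0202 by edgeR). SMARCB1, STS and INO80B did not pass in that fit. The members had r of 0.308 for MT1A, 0.285 for MT1E, 0.265 for MT1H and 0.0416 for MT1X, and 36.1%, 37.6%, 38.6% and 49.2% of the ranked genes had a higher r. These values pool both groups, between which the ratios of MT1E and MT1X to MT2A differed.

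Fold changes in the authors' deposited table are read here as p53 WT over p53 KO because CDKN1A is positive at 3.54. The fold change had the same sign as the deposited test score in 0 rows, so the direction is taken from CDKN1A and not from the score. On that reading MT1X had -0.82 (authors' adjusted p = 0.0254), MT1E -0.44 (authors' adjusted p = 0.237) and MT2A 0.20 (authors' adjusted p = 0.765). MT1CP, with 57 counts in p53 KO and 1 in p53 WT and not tested here, had -6.16 (authors' adjusted p = 0.0267) in the authors' deposited table, higher in p53 KO. A p53 cistrome mark stands beside 124 of the 35987 genes of the authors' deposited table, and 0 of the 9 members carry it.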

How the data were processed

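Polyadenylated RNA of 6 libraries was sequenced with a stranded protocol, per the labels. The authors deposited raw counts per gene symbol. Their deposited comparison table has columns for a test score, p-values with and without adjustment, the log2 fold change, its SE, and the average signal (normalised counts). The submitters' processing notes name GRCh37 (hg19) and the tools HISAT2 2.1.0, fastp 0.21.0 and DESeq2 1.3.6. How counting was done, on which annotation and strand, is not given in the sources used here.

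The test was that of edgeR 4.0.16 under R 4.3.3 (quasi-likelihood F-test, robust, TMM factors, filterByExpr, Benjamini-Hochberg adjustment over 22352 genes, threshold 0.05). The SE is the absolute log2 fold change over the root of F. Total counts were 20393909 to 79767519. Members and lists were chosen with earlier results of these data known. Of list genes, the 3 past the threshold with the smallest adjusted p are named, markers as counts only, together with the 5 tested neighbours on each side, family genes with at least 10 counts and the 5 genes most like MT2A. Some items that this rule names are not reported here. Other genes named from the lists were picked after their values were seen. Gene order came from RefSeq. Ratios were chosen after seeing the data. No per-sample column was left unused. On simulated counts for p53 KO against p53 WT over 21573 genes, 69.0% of 100 genes changed by 1 on the log2 scale and 93.0% of 100 changed by 2 were recovered. Alternatives were RLE or no factors, other filters, DESeq2 1.42.0, limma-voom (limma 3.58.1), a replicate block, local medians and each library left out.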

Additional observations from a re-analysis of the deposited data

How the results depend on the processing

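The number of members past the threshold, 1 in the reported fit, was 2 with no composition factors, 2 with a filter of 1 CPM in 3 libraries and 2 by DESeq2 (MT1E and MT1X each time), and 3 with no filter (MT1E, MT1G and MT1X). Leaving out 1 library gave 0 to 3 members (0 without p53 WT replicate 2, 3 without p53 KO replicate 2), and 4160 to 6059 genes in all against 5924. MT1G, among the 3 members with no filter and without p53 KO replicate 2, had 3 counts in p53 WT. Nothing is read from its calls. With the local median of 50 or 20 genes taken off, the 1 member past the threshold was MT2A, as lower, in place of MT1X as higher, with an offset that ignores the spread of the neighbours. The local medians of 50 and of 20 genes turned the direction of MT1E to -0.24 and -0.25, of OGFOD1 to -0.13 and -0.11, of BBS2 to -0.63 and -0.64, of FAM192A to -0.07 and -0.10, and of C16orf13 to 0.42 and 0.67, and that of 50 genes turned SMARCB1 to 0.11. BBS2 also turned without p53 WT replicate 1 (-0.03) and without p53 KO replicate 3 (-0.01). Where no sentence names one, the cause was not tested. Over 55 named genes, 739 of 823 values under alternatives kept direction and side of the threshold. Replicate numbers share only a number between groups: deviations of libraries with the same number correlated at -0.0626, 0.16 and -0.239 over 12694 genes. With the number as a replicate block, 5159 genes and 1 member, MT1X, passed. Depth limits MT1F, MT1M and MT3, at 9 counts or fewer in either group, and MT1G, at 3 counts in p53 WT.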
